A study of Homo sapiens with 6 samples.

Results

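The gene set described here held 32 genes of protein folding, quality control and stress signalling in the endoplasmic reticulum (ER), picked by symbol. All 32 had a row in each file, out of 24551 gene symbols, and all 32 were among the 11865 genes tested, those whose mean over the 6 libraries was 1 FPKM or more (fragments scaled by transcript length and library size). HSP90B1 shared its row with the microRNA gene MIR3652, so its values hold reads of both. The study knocked down SPOP, the substrate adaptor of a cullin 3 ubiquitin ligase, with 2 siRNAs in DU145, a human prostate cancer cell line, and in 769-P, a human renal cell adenocarcinoma line, and sequenced polyA-selected RNA. Each line had 1 control library, labelled NC, 1 library of SPOP siRNA 1 and 1 library of SPOP siRNA 2. Both lines therefore shared the same design, and no further genotype, dose or time was given in the labels. The 2 siRNAs were the only replicates within a line and the labels do not say that libraries came from separate cultures, so p-values measure the spread between these libraries only.

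Secreted and membrane proteins enter the ER through the SEC61 channel, fold with help from the HSP70 chaperone BiP (HSPA5), the lectin chaperones calreticulin and calnexin and the protein disulfide isomerases, and leave in COPII vesicles. Proteins that fail to fold are exported to the cytosol and degraded, a process called ER-associated degradation (ERAD). When unfolded proteins build up, the sensors IRE1 (ERN1), PERK (EIF2AK3) and ATF6 start the unfolded protein response, in which the factors XBP1, ATF4 and ATF6 raise chaperone and ERAD genes.

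SPOP was measured at 16.1 FPKM in DU145 NC and at 2.77 and 2.96 FPKM with siRNA 1 and siRNA 2, which was 17.2% and 18.4% of NC. In 769-P it was measured at 11.6, 1.53 and 1.39 FPKM in the same order, which left 13.2% and 12.0% of NC. The DU145 NC and 769-P siRNA 2 libraries stood apart: olfactory receptor genes, which neither cell type is known to use, were above 0 for 287 of 366 genes in DU145 NC and 237 in 769-P siRNA 2, against 3 to 5 in the other 4 libraries. Their mean level there was 0.345 and 0.227 FPKM, which is small beside the level of all but the lowest members. DU145 had EPCAM at 27.6 to 36.2 FPKM but KLK3 and HOXB13 at most at 0.311 FPKM, and 769-P had PAX8 at 105.6 to 125.5 FPKM but CA9 at 0 in its 3 libraries. The blood marker PTPRC was at most at 0.0347 FPKM. The summed level of the 32 genes was 2034, 2399 and 2599 FPKM in DU145 (NC, siRNA 1, siRNA 2) and 2233, 2468 and 2402 FPKM in 769-P. That was 0.511%, 0.587% and 0.580% of all FPKM in DU145 and 0.523%, 0.557% and 0.588% in 769-P. NC had the lowest share in both lines, and such a sum gives most weight to the highest members.

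Promoter sequence is shown first because it is what many of these genes are known to share. The 250 bases before the start site are given for 6 members, 5′ to 3′ along the gene, from RefSeq on GRCh38.p14. The expression files are on hg19, so these positions are not those of the files. Capitals mark the ER stress elements found, and DNAJB9 is shown as the only member called in the comparison with NC.
HSPA5, chr9:125241344-125241593, minus strand: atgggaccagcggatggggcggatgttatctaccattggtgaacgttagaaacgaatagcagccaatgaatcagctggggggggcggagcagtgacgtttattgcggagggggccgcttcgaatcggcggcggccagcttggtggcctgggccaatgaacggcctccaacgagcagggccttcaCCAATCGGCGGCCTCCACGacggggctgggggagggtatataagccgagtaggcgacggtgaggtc
CALR, chr19:12938359-12938608, plus strand: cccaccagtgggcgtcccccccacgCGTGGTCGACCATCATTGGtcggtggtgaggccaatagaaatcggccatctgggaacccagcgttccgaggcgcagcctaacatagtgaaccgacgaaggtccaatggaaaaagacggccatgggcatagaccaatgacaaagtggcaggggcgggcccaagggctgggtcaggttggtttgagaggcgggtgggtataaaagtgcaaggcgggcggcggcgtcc
XBP1, chr22:28800570-28800819, minus strand: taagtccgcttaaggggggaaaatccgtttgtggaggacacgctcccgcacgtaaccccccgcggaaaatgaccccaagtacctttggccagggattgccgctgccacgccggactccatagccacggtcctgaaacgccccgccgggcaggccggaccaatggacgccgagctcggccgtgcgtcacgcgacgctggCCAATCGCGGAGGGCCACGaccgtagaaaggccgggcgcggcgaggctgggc
HYOU1, chr11:119057206-119057455, minus strand: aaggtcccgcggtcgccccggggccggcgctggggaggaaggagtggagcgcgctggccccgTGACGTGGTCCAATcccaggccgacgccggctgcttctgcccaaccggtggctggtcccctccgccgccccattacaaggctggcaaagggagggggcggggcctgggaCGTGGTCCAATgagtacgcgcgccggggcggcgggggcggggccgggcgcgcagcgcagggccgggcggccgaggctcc
HERPUD1, chr16:56931892-56932141, plus strand: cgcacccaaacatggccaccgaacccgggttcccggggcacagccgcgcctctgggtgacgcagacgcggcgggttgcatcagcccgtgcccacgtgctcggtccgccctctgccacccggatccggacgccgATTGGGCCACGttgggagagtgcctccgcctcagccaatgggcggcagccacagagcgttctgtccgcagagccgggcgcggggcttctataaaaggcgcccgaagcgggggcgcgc
DNAJB9, chr7:108569624-108569873, plus strand: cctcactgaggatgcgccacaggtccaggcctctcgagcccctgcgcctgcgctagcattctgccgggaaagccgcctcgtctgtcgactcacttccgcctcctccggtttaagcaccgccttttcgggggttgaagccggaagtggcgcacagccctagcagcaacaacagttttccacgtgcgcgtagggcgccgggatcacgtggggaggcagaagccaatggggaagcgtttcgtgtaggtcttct

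The elements were searched on both strands in 300-base windows, from 250 bases before to 50 bases after the start. They were the ER stress response element (ERSE, CCAAT and CCACG with 9 bases between them), ERSE-II (ATTGG and CCACG with 1 base between them) and the unfolded protein response element (UPRE, searched as TGACGTGG). A window was found for 29 of the 32 members and for none of PDIA3, DERL1 and SEC24D. Further start sites of a gene were not searched. The windows of tested genes and of all genes given for comparison include those of the members. ERSE was present in 6 of the 29 windows (20.7%), those of HSPA5, HSP90B1, CALR, CANX, CRELD2 and XBP1, against 11 of 8521 windows of tested genes (0.129%) and 22 of all 27305 windows (0.0806%). ERSE-II was present in 3 members (10.3%), HYOU1, SDF2L1 and HERPUD1, against 0.129% and 0.0549%. UPRE was present in HYOU1 alone (3.45%), where it overlapped an ERSE-II, against 0.998% and 0.795%. In all, 9 members (31.0%) held an element, against 1.24% of tested genes with a window. HSP90B1 held 2 ERSE and HYOU1 2 ERSE-II. The DNAJB9 window held none of these letter strings. A match is a description of the letters, and binding was not measured. The elements were already known from genes of this response, and the members were picked by symbol as such genes. Their higher shares were therefore largely set in advance and are no test of the set. The 9 members with an element had a median change from NC of 0.18 in DU145 and 0.21 in 769-P on the log2(FPKM + 1) scale, and the 20 with a window and no element 0.14 and -0.10, values given as a description with no test.

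**Figure D1:**
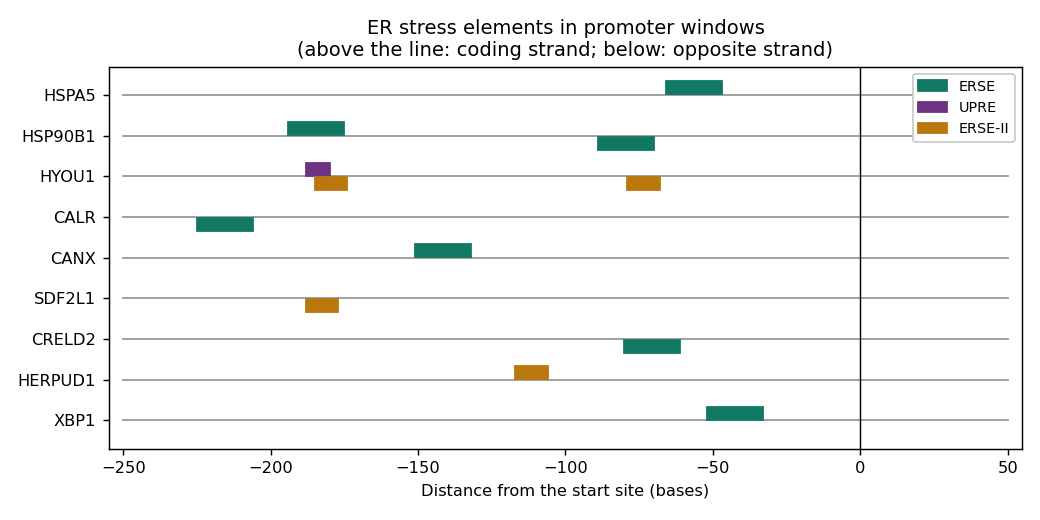
Each line is the 300-base window of 1 member, the x axis is the distance from the start site in bases, and boxes are ERSE (green), ERSE-II (ochre) and UPRE (purple), above the line on the coding strand and below it on the opposite strand. The ERSE of HSPA5 spans bases -66 to -48 from the start and that of CALR bases -225 to -207.

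The 32 genes spanned more than 2 orders of magnitude in level, compared per length as FPKM. The 3 libraries of each line are NC, siRNA 1 and siRNA 2, so means, SDs and overlaps include any change with knockdown. CALR, the calcium-binding lectin calreticulin, and P4HB, the founding protein disulfide isomerase, stood highest in both lines, with means of 380 ± 98.1 and 386 ± 81.8 FPKM in DU145 (SD, n = 3 libraries) that overlapped, and 558 ± 67.5 and 310 ± 45.6 FPKM in 769-P that did not. The next 8 genes in DU145 were PDIA6, HSPA5, SEC61B, PDIA3, HSP90B1, PDIA4, CANX and HYOU1, at means of 184 down to 74.1 FPKM. PDIA6 and HSPA5 overlapped, as did each neighbouring pair from SEC61B to HYOU1, and there was a gap between HSPA5 and SEC61B. ERN1 had the lowest mean in both lines, at 2.32 ± 0.791 and 0.425 ± 0.285 FPKM, and in DU145 its range overlapped those of DNAJB9, EIF2AK3 and ATF6, the next genes above it. CALR was exceeded by 0.936% and ERN1 by 95.0% of the tested genes in mean level over the 6 libraries.

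**Figure D2:**
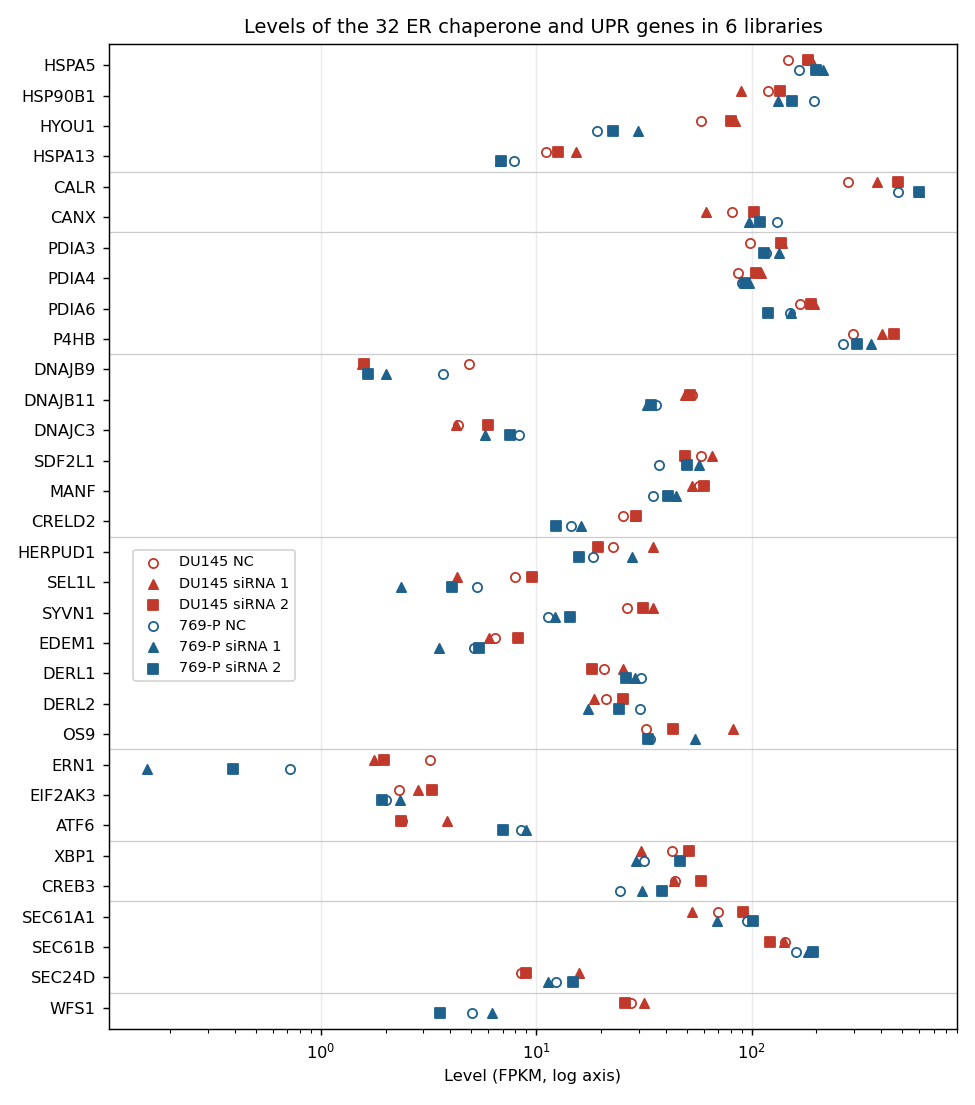
Points are the FPKM of the 32 genes on a log axis in each of 6 libraries, DU145 in red and 769-P in blue, with NC as open circles, siRNA 1 as triangles and siRNA 2 as squares, ordered by role. CALR and P4HB stand highest in both lines, and WFS1, HYOU1 and SYVN1 lie higher in all 3 DU145 libraries than in all 3 769-P libraries.

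After SPOP knockdown, most members changed by less than 1.5-fold, as did most tested genes. With a call defined as a change of at least 1.5-fold on the log2(FPKM + 1) scale with both siRNAs in the same direction, 1 of 32 members was called in DU145 and 1 of 32 in 769-P, in both cases DNAJB9, which was lower. The same rule called 5.91% of all tested genes in DU145 (4.72% higher, 1.19% lower) and 7.32% in 769-P (3.6% higher, 3.73% lower). The median change of the members, averaged over the siRNAs, was 0.18 in DU145 against 0.09 over all tested genes, and 0.01 in 769-P against -0.03. In the DU145 siRNA 2 library the median over all genes was itself 0.12 above NC, and with each library centred on that median the DU145 median of the members was 0.08. By limma at an adjusted p of 0.05, SPOP knockdown gave 0 of 32 members in either line, where 16 genes (0.135%) and 12 genes (0.101%) passed in all. At an unadjusted p under 0.05 there were 2 members in DU145 (DNAJB9 and CALR) against 6.27% of all genes, and 1 in 769-P (DNAJB9) against 6.97%.

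With each siRNA taken alone, members past 1.5-fold in DU145 were 2 higher and 3 lower with siRNA 1 (12% and 7.42% of all genes) and 2 higher and 1 lower with siRNA 2 (11.3% and 3.73%). In 769-P they were 3 higher and 3 lower with siRNA 1 (10.3% and 9.84%) and 1 higher and 1 lower with siRNA 2 (6.15% and 8.37%). By direction alone, both siRNA libraries were above NC for 13 members and below it for 4 in DU145, against 43.5% and 22.2% of all tested genes. In 769-P, 10 members were above and 10 below, against 31.5% and 39.5%. With each library centred on its median, the split was 12 above and 5 below in DU145 (32.9% and 32.9% of all genes) and 13 above and 10 below in 769-P (35.1% and 36.6%). HSPA5, HYOU1, CALR, PDIA4, P4HB and SYVN1 were above NC in all 4 siRNA libraries, which made 6 of 32 members against 20.1% of all genes. DNAJB9, DNAJB11 and ERN1 were below NC in all 4, which made 3 against 13.6%. With centring, PDIA3, OS9 and EIF2AK3 joined the first group, making 9 against 17.8% of all genes, and the same 3 genes stayed below, against 18.6%.

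**Figure D3:**
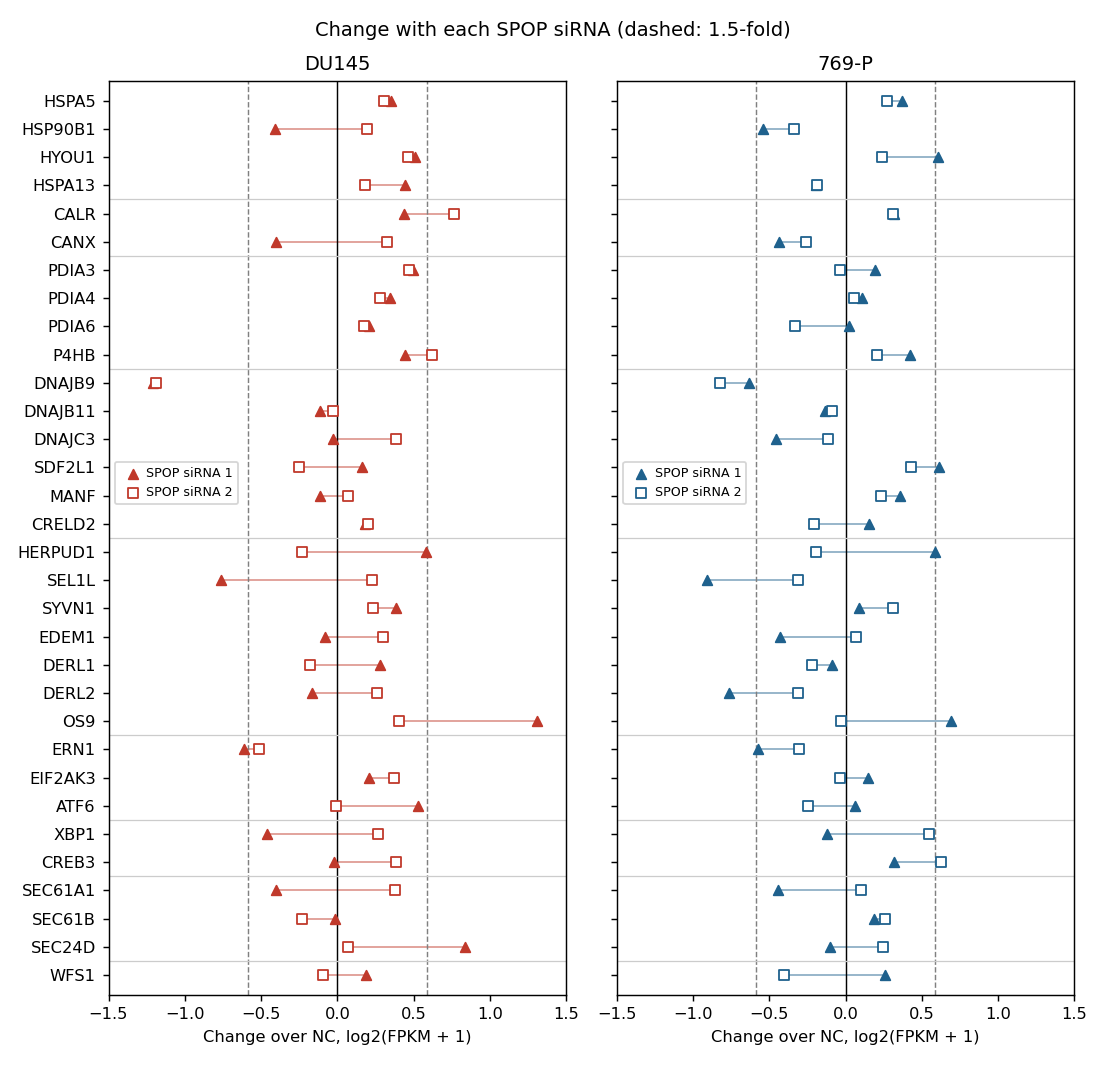
Each point is the change of 1 siRNA library over its line's NC on the log2(FPKM + 1) scale, triangles for siRNA 1 and open squares for siRNA 2, with the 2 joined by a line and the 1.5-fold limits dashed. DNAJB9 lies beyond the lower limit with both siRNAs in DU145 and in 769-P, while OS9, HERPUD1, SEL1L and XBP1 show the 2 siRNAs far apart.

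DNAJB9 encodes ERdj4, a J-domain partner of BiP that presents BiP to the sensor IRE1 and takes part in ERAD (hg19, chr7:108210311-108215294, plus strand). It was measured at 4.90 FPKM in DU145 NC, 1.56 FPKM with siRNA 1 and 1.58 FPKM with siRNA 2. In 769-P it was measured at 3.68, 2.02 and 1.65 FPKM in the same order. Both siRNA libraries lay below NC in each line and the siRNAs lay close together. The FPKM ratio to NC was 0.318 and 0.323 in DU145 and 0.548 and 0.449 in 769-P. DNAJB9 was past 2-fold with both siRNAs in DU145, as were 0.995% of tested genes (0.329% lower), and not in 769-P, where 1.22% of tested genes were. It was past 1.5-fold in the lower direction in both lines, as were 0.27% of tested genes, while 1.14% were past it in 1 direction or the other in both lines. The limma change was -1.20 (SE 0.25, adjusted p = 0.715) in DU145 and -0.73 (SE 0.25, adjusted p = 0.693) in 769-P on the log2(FPKM + 1) scale, so neither passed. Averaged over the lines, in a fit chosen after the data were seen, it was -0.96 (SE 0.21, adjusted p = 0.0690, range 0.0280 to 0.476 over 11 alternatives). It passed in 2 of those, 0.0461 with small RNA genes left out and 0.0280 without the 769-P siRNA 1 library. In that fit 0 members passed, 7 had an unadjusted p under 0.05 (18.9% of all genes) and 145 genes passed in all (1.22%). With the mean olfactory receptor level subtracted from each library, DNAJB9 was at 4.55, 1.55 and 1.58 FPKM in DU145 and 3.68, 2.01 and 1.42 FPKM in 769-P. Fewer cells with the transcript and less of it per cell cannot be told apart in bulk RNA.

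Among the large ER chaperones, HSPA5 and HYOU1 lay above NC in every siRNA library. HSPA5, the HSP70 of the ER lumen and the best known marker of the unfolded protein response, was at 148, 189 and 183 FPKM in DU145 (NC, siRNA 1, siRNA 2) and at 166, 214 and 200 FPKM in 769-P. The siRNA libraries were 1.21 to 1.29 times NC. HYOU1, the HSP110-type nucleotide exchange factor of BiP, was at 58.2, 83.4 and 80.7 FPKM in DU145 and at 19.2, 29.8 and 22.8 FPKM in 769-P. The siRNA 1 library of 769-P was past 1.5-fold. The limma adjusted p for HSPA5 was 0.827 in DU145 and 0.739 in 769-P, and for HYOU1 it was 0.813 and 0.733.

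The other chaperones of this kind gave no common direction. HSP90B1, the HSP90 of the ER also known as GRP94, was at 119, 89.3 and 136 FPKM in DU145 and at 194, 133 and 154 FPKM in 769-P, so that NC lay between the siRNAs in DU145 and above both in 769-P. HSPA13, a microsomal HSP70 relative, was at 11.1, 15.4 and 12.7 FPKM in DU145 and at 7.94, 6.82 and 6.85 FPKM in 769-P. NC was the lowest library in DU145 and the highest in 769-P. The difference between the lines was 0.50 on the log2(FPKM + 1) scale and did not pass limma (adjusted p = 0.999).

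The lectin chaperones, which hold glycoproteins while their glycans are trimmed, went separate ways. CALR was at 281, 381 and 478 FPKM in DU145 and at 480, 598 and 596 FPKM in 769-P. NC was the lowest library of its line in both, with a limma change of 0.60 (SE 0.23, adjusted p = 0.786) in DU145 and 0.31 (SE 0.23, adjusted p = 0.759) in 769-P. CANX, the membrane-bound partner calnexin, was at 81.5, 61.5 and 102 FPKM in DU145 and at 132, 97.2 and 110 FPKM in 769-P. In DU145 the siRNAs lay on either side of NC.

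The 4 protein disulfide isomerases, which form and shuffle disulfide bonds, were above NC with both siRNAs in DU145, and P4HB and PDIA4 also in 769-P. P4HB was at 297, 405 and 457 FPKM in DU145 and at 266, 357 and 307 FPKM in 769-P. PDIA3, the isomerase that works with calreticulin and calnexin, was at 98.5, 139 and 137 FPKM in DU145 and at 117, 134 and 114 FPKM in 769-P. Its siRNA libraries were about level with each other in DU145 and lay on either side of NC in 769-P. PDIA4 was at 86.4, 110 and 105 FPKM in DU145 and at 90.1, 97.4 and 93.6 FPKM in 769-P. PDIA6 was at 168, 194 and 189 FPKM in DU145 and at 151, 153 and 120 FPKM in 769-P. The median of their mean changes was 0.40 in DU145 and 0.08 in 769-P on the log2(FPKM + 1) scale, against 0.09 and -0.03 over all tested genes, and none passed limma.

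None of the other J proteins and stress-induced partners was called. DNAJB11, the J protein ERdj3 that brings clients to BiP, was at 53.1, 48.9 and 51.9 FPKM in DU145 and at 36.2, 32.8 and 34.0 FPKM in 769-P, at 0.907 to 0.979 of NC in the 4 siRNA libraries. DNAJC3, known as p58IPK and an inhibitor of PERK, was at 4.34, 4.23 and 5.98 FPKM in DU145 and at 8.32, 5.80 and 7.59 FPKM in 769-P. SDF2L1, a partner of the ER J proteins, was at 58.3, 65.4 and 48.9 FPKM in DU145 and at 37, 57.2 and 50.3 FPKM in 769-P. NC lay between the siRNAs in DU145 and below both in 769-P, where the limma change was 0.52 (SE 0.26, adjusted p = 0.718). MANF, a secreted protein that binds BiP, lay between 52.7 and 60.1 FPKM in DU145 and between 34.8 and 44.8 FPKM in 769-P. CRELD2, a stress-induced secreted protein, lay between 25.2 and 29.0 FPKM in DU145 and between 12.4 and 16.2 FPKM in 769-P.

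Among the 7 ERAD genes, both siRNAs lay on 1 side of NC in both lines only for SYVN1. SYVN1, the ubiquitin ligase HRD1 at the core of the pathway, was at 26.5, 34.9 and 31.3 FPKM in DU145 and at 11.4, 12.2 and 14.4 FPKM in 769-P, above NC in all 4 siRNA libraries. SEL1L, the HRD1 partner that recruits clients, was at 8.02, 4.31 and 9.55 FPKM in DU145 and at 5.29, 2.35 and 4.08 FPKM in 769-P. The siRNA 1 library was lowest in both lines, at 0.537 and 0.445 of NC. OS9, a lectin that hands misfolded glycoproteins to SEL1L, was at 32.3, 81.7 and 43.2 FPKM in DU145 and at 33.7, 54.9 and 33 FPKM in 769-P, with siRNA 1 far above the other libraries of its line. HERPUD1, a ubiquitin-like ERAD adaptor induced by stress, was at 22.8, 34.7 and 19.3 FPKM in DU145 and at 18.3, 27.9 and 15.8 FPKM in 769-P. In both lines siRNA 1 was above NC and siRNA 2 below it. EDEM1, which trims mannose from misfolded glycoproteins, lay between 6.06 and 8.21 FPKM in DU145 and between 3.55 and 5.44 FPKM in 769-P. DERL1 lay between 18.1 and 25.2 FPKM in DU145 and between 26.1 and 30.6 FPKM in 769-P. DERL2 lay between 18.6 and 25.3 FPKM in DU145 and between 17.5 and 30.4 FPKM in 769-P. Both encode derlins, membrane proteins of the export channel, and DERL2 in 769-P was highest in NC.

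The 3 sensors were at low levels and differed in direction. ERN1, the kinase and nuclease IRE1 that splices XBP1 mRNA, was at 3.23, 1.77 and 1.96 FPKM in DU145 and at 0.723, 0.156 and 0.394 FPKM in 769-P. It lay below NC in all 4 siRNA libraries, at 0.549 and 0.609 of NC in DU145 and at 0.216 and 0.545 in 769-P. The pseudocount of 1 FPKM shrinks changes at such levels, and with 0.1 FPKM in its place ERN1 was called lower in both lines. After subtraction of the olfactory receptor level it was at 2.88, 1.77 and 1.96 FPKM in DU145 and at 0.718, 0.151 and 0.167 FPKM in 769-P. EIF2AK3, the kinase PERK that phosphorylates eIF2alpha, was at 2.32, 2.83 and 3.30 FPKM in DU145 and at 2.0, 2.33 and 1.92 FPKM in 769-P. ATF6, the membrane-bound factor cut free in the Golgi, was at 2.38, 3.87 and 2.35 FPKM in DU145 and at 8.52, 8.95 and 7.04 FPKM in 769-P. In DU145 only siRNA 1 differed from the other libraries.

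XBP1 and CREB3 are, beside ATF6, the transcription factors of the set. XBP1 was at 42.5, 30.6 and 51.4 FPKM in DU145 and at 31.6, 29.0 and 46.7 FPKM in 769-P, with siRNA 1 below NC and siRNA 2 above it in both lines. Gene-level FPKM does not separate its spliced from its unspliced mRNA. CREB3, a membrane-bound factor related to ATF6 in its activation, was at 44.4, 43.6 and 58.2 FPKM in DU145 and at 24.6, 30.9 and 38.4 FPKM in 769-P. The siRNA 2 library was highest in both lines.

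Genes of entry to and exit from the ER showed no shared direction. SEC61A1, the pore of the translocation channel, was at 70.1, 52.9 and 91.4 FPKM in DU145 and at 94.8, 69.4 and 102 FPKM in 769-P, lowest with siRNA 1 and highest with siRNA 2 in both. SEC61B, a small subunit of the channel, was at 143, 142 and 122 FPKM in DU145 and at 161, 184 and 194 FPKM in 769-P. NC was the highest library in DU145 and the lowest in 769-P, a difference between the lines of -0.35 on the log2(FPKM + 1) scale that did not pass limma (adjusted p = 0.999). SEC24D, a cargo-binding subunit of the COPII coat, was at 8.47, 15.9 and 8.95 FPKM in DU145 and at 12.3, 11.4 and 14.8 FPKM in 769-P, so the high siRNA 1 library of DU145 had no counterpart in 769-P. WFS1, wolframin, an ER membrane protein of calcium balance, was at 27.6, 31.6 and 25.8 FPKM in DU145 and at 5.04, 6.22 and 3.57 FPKM in 769-P. No member passed limma for a difference of the knockdown change between lines, and none had an unadjusted p under 0.05, against 2.74% of all genes.

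For several members the 2 siRNAs lay far apart, in the same order in both lines. The siRNA 2 library was past 1.5-fold from siRNA 1 in the same direction in both lines for 4 of 32 members (12.5%), against 3.93% of all tested genes. XBP1 and SEL1L were higher with siRNA 2 (2.23% of all genes) and HERPUD1 and OS9 lower (1.7% of all genes). Line by line, siRNA 2 was past 1.5-fold above siRNA 1 for 5 members in DU145 and 2 in 769-P (10.9% and 5.48% of all genes) and below it for 3 in each (6.69% and 6.43%). The FPKM ratio of siRNA 2 to siRNA 1 was 1.68 and 1.61 for XBP1 in DU145 and 769-P, and 2.22 and 1.73 for SEL1L. It was 0.557 and 0.568 for HERPUD1 and 0.528 and 0.60 for OS9. The sign of the difference was the same in both lines for 22 members (68.8%), against 59.6% of all genes. In a limma fit of this difference over both lines, chosen after the data were seen, 0 members passed, 8 had an unadjusted p under 0.05 (13.8% of all genes) and 90 genes passed in all (0.759%). The difference was -0.80 (SE 0.16, adjusted p = 0.0708) for HERPUD1, with a range of adjusted p of 0.0267 to 0.639 over 12 alternatives, of which 2 passed. For OS9 it was -0.81 (SE 0.19, adjusted p = 0.102, range 0.0457 to 0.653, 3 passed). For XBP1 it was 0.70 (SE 0.17, adjusted p = 0.114) and for SEL1L 0.80 (SE 0.22, adjusted p = 0.159), and neither passed in any of 12. The 769-P siRNA 2 library is one of the libraries with olfactory receptor signal. The DU145 siRNA 1 and siRNA 2 libraries had 5 and 4 of 366 olfactory receptor genes above 0. With the mean olfactory receptor level subtracted from each library, 2 members passed in this fit, HERPUD1 and OS9. The part of that signal in these differences was not tested further.

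**Figure D4:**
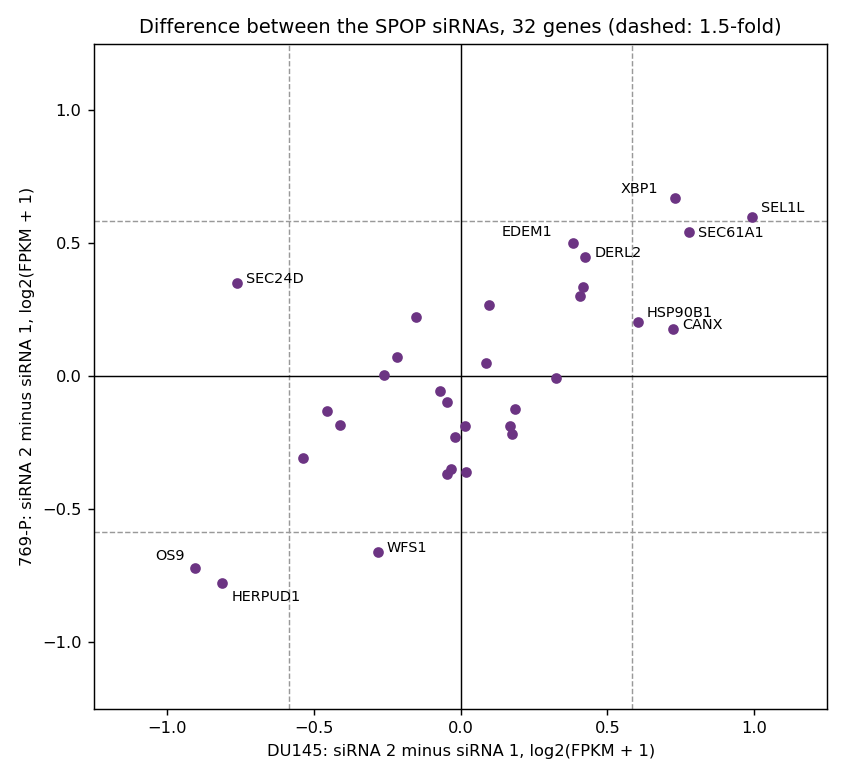
Each of 32 points is 1 gene, with the siRNA 2 minus siRNA 1 difference on the log2(FPKM + 1) scale in DU145 on the x axis and in 769-P on the y axis, and the 1.5-fold limits dashed. XBP1 and SEL1L lie beyond both upper limits and HERPUD1 and OS9 beyond both lower limits, while SEC24D differs in opposite directions.

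Levels were also compared between the lines. By limma on all 6 libraries, 11 of 32 members differed in level between DU145 and 769-P, 9 higher and 2 lower in DU145, against 42.1% of all tested genes (26.8% higher, 15.3% lower). At an unadjusted p under 0.05 there were 12, against 51.3%. The 11, the 9 and the 12 include ERN1, which reached the filter only through DU145 and is described below. WFS1 was higher in DU145 by 2.30 on the log2(FPKM + 1) scale (SE 0.25, adjusted p = 0.00163). Its level was 28.3 ± 2.97 against 4.94 ± 1.33 FPKM (SD over NC and both siRNA libraries, n = 3). HYOU1 was higher by 1.58 (SE 0.17, adjusted p = 0.00168), at 74.1 ± 13.8 against 23.9 ± 5.37 FPKM. SYVN1 was higher by 1.20 (SE 0.16, adjusted p = 0.00364). WFS1, HYOU1 and SYVN1 passed in every alternative. ERN1 reached the filter of 1 FPKM only through DU145. Its mean over the 6 libraries was 1.37 FPKM, and its 769-P libraries were all under 1 FPKM, at 0.156 to 0.723 FPKM. Its difference between the lines, 1.24 on the log2(FPKM + 1) scale, is therefore given as a description only. ATF6 was lower in DU145, with a difference of -1.32 (SE 0.23, adjusted p = 0.00861), at 2.87 ± 0.868 against 8.17 ± 1.0 FPKM. CALR was lower too, with a difference of -0.63 (adjusted p = 0.0273), while CRELD2, HSPA13, CREB3, DNAJB11 and MANF were higher by 0.54 to 0.86 (adjusted p of 0.0136 to 0.0389). ATF6, CALR and these 5 lost the call in some alternatives. With 1 siRNA library left out, its group holds 1 library, and fewer members and fewer of all tested genes passed. All 3 DU145 libraries lay above all 3 of 769-P for 11 members (35.1% of all genes) and below for 4 (21.2%). PDIA6 and EDEM1 were among the 11 and DERL1 and SEC61B among the 4 without passing limma.

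Around the 32 genes, 145 further genes were counted in 9 lists, 121 of them of the ER and its stress pathway and 24 chaperones and proteases of the cytosol and mitochondria, and 141 were tested. Past 1.5-fold with both siRNAs, 12 were higher and 0 lower in DU145 (8.51%, against 5.91% of all genes), and 6 were higher and 3 lower in 769-P (6.38%, against 7.32%). Of these, 11 higher in DU145 and 4 higher and 2 lower in 769-P were of the ER and its pathway. By limma 0 of the 141 passed for knockdown in either line (smallest adjusted p = 0.452 and 0.594), and 13 and 11 had an unadjusted p under 0.05, against 6.27% and 6.97% of all genes. In the fit averaged over the lines, chosen after the data were seen, 6 passed (TRIB3, SIL1, PRDX4, GANAB, MBTPS1 and LONP1), as did 1.22% of all genes, and this count was not recomputed under alternatives. Among 12 genes of N-glycosylation and glycan trimming, 11 were above NC with both siRNAs in DU145 (43.5% of all genes) and 6 in 769-P (31.5% of all genes), and 1 was called. That gene was GANAB, the catalytic subunit of glucosidase II, whose trimming feeds glycoproteins to CALR and CANX. GANAB was at 62.1, 149 and 178 FPKM in DU145 and at 54.1, 129 and 113 FPKM in 769-P, so each siRNA library was more than 2-fold above NC (limma adjusted p = 0.499 and 0.594). Among 23 tested genes of folding and oxidation, 5 were called higher in DU145 (FKBP10, SIL1, PRDX4, CALU and MLEC). In 769-P, 2 were called higher (SIL1 and PRDX4) and 1 lower (TMX1). SIL1, a nucleotide exchange factor of BiP, was at 9.23, 16.4 and 18.9 FPKM in DU145 and at 11.2, 23.0 and 21.7 FPKM in 769-P. PRDX4, the peroxiredoxin of the ER, was at 40.3, 75.4 and 64.9 FPKM in DU145 and at 51.8, 89.9 and 82.2 FPKM in 769-P.

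The 13 outputs of PERK and ATF4 had a median change, averaged over the siRNAs, of 0.45 in DU145 and 0.26 in 769-P. Over all tested genes it was 0.09 and -0.03. Of the 13, 2 were called higher in DU145 and 1 lower in 769-P, while the rule called 5.91% and 7.32% of all genes. The DU145 median joins siRNAs that differed. Changes with siRNA 1 and siRNA 2 were 1.17 and -0.06 for SESN2 and 1.68 and 0.11 for DDIT4. Only ATF3, VLDLR and NUPR1 were higher with siRNA 2 there. Both siRNAs were above NC for 9 in DU145 and 6 in 769-P (43.5% and 31.5% of all genes). Both were below it for 2 and 4 (22.2% and 39.5%). TRIB3, a pseudokinase induced by ATF4, was at 60.7, 111 and 107 FPKM in DU145 and at 57.1, 83.1 and 92.9 FPKM in 769-P, called in DU145 only. NUPR1, a stress-induced nuclear protein, was called in opposite directions, at 3.31, 12.5 and 21.5 FPKM in DU145 and at 1.52, 0.565 and 0.427 FPKM in 769-P. ATF4 itself was at 284, 362 and 337 FPKM in DU145 and at 182, 266 and 237 FPKM in 769-P, and DDIT3, the death-linked factor CHOP, at 24.4, 43.4 and 28.4 FPKM and at 16.9, 15.2 and 13.3 FPKM. Neither was called. Of 9 tested regulators, 1 was called in DU145, MBTPS1, the Golgi protease that cuts ATF6, at 20.4, 46.4 and 42.8 FPKM against 17.3, 30.5 and 25.6 FPKM in 769-P.

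Calls in the other 5 lists are set beside the 5.91% of all tested genes called in DU145 and the 7.32% called in 769-P. None of 19 genes of the translocon, signal peptidase and signal sequence receptor was called in either line. Their median change was -0.03 in DU145 and -0.23 in 769-P, against 0.09 and -0.03 over all tested genes. Of 21 further ERAD genes, 1 was called, AUP1, higher in 769-P. Of 20 genes of ER exit and retrieval, 2 were called higher in DU145, SEC13 and SURF4, and none in 769-P. Among chaperones outside the ER, AHSA1 was called higher and CHORDC1 lower in 769-P out of 16 cytosolic genes. HSPA8, the constitutive cytosolic HSP70, was at 416, 304 and 506 FPKM in DU145 and at 646, 610 and 614 FPKM in 769-P, and HSP90AB1 at 691, 649 and 731 FPKM and at 697, 597 and 588 FPKM, neither of them called. Of 8 mitochondrial genes, the protease LONP1 was called higher in both lines, at 50.6, 126 and 116 FPKM in DU145 and at 49.9, 84.5 and 87.3 FPKM in 769-P. The list genes TXNDC5, TXNDC12, DDOST, NFYA and HSPE1 shared rows with other symbols.

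**Figure D5:**
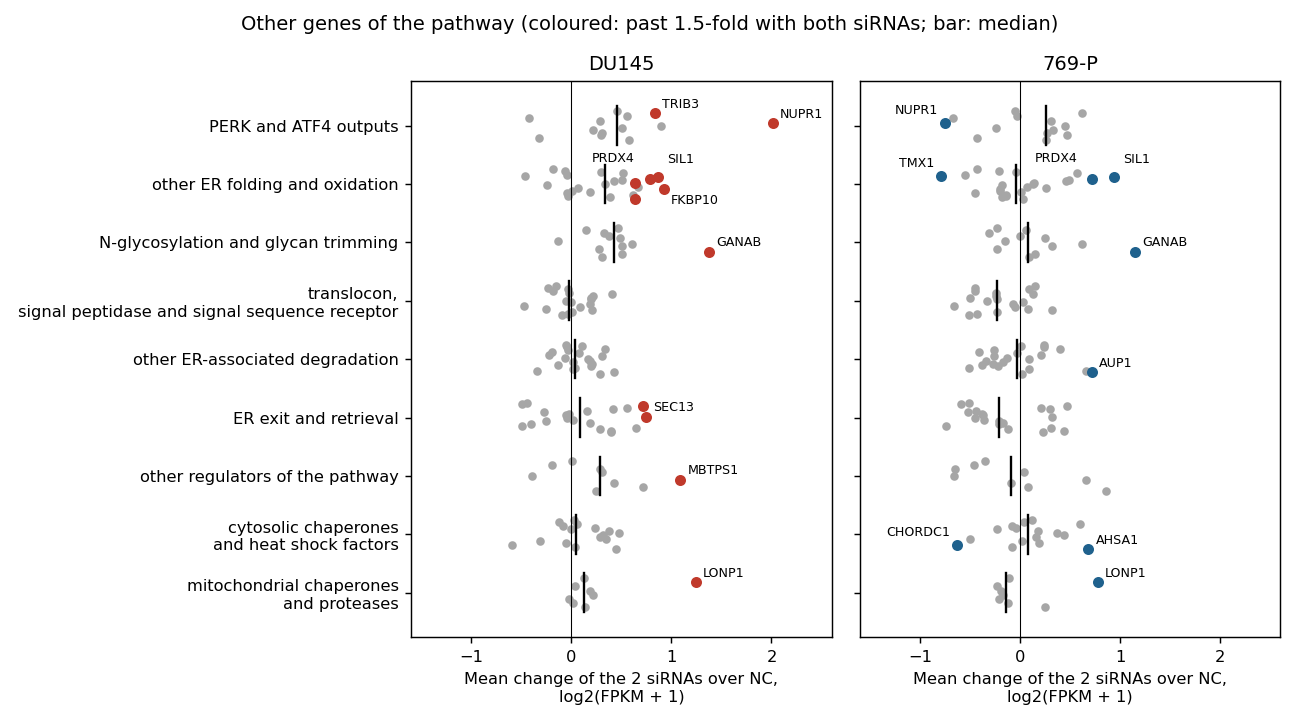
Points are the mean change of the 2 siRNAs over NC on the log2(FPKM + 1) scale for each tested gene of 9 lists, in DU145 on the left and 769-P on the right, coloured where both siRNAs were past 1.5-fold, with a bar at each list's median. GANAB, SIL1, PRDX4 and LONP1 are coloured as higher in both lines, and NUPR1 in opposite directions.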

How the data were processed

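RNA was polyA-selected and sequenced in 6 libraries. The submitters' processing notes name FastQC, cutadapt, TopHat2 and hg19. Tool versions and the annotation are not given in the sources used here. The authors deposited 1 file of FPKM per library, which hold no counts, so depth is unknown. From the spacing of low values it was estimated at 0.681 to 1.41 times that of 769-P NC. The study's methods describe 2 biological replicates and another library kit, while the labels give 1 library per siRNA.

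Rows of a repeated symbol were summed (440 symbols), and those with a mean under 1 FPKM were left out. Changes are differences of log2(FPKM + 1), so changes of low genes are understated. A gene was called when both siRNAs were past 1.5-fold from NC in 1 direction. limma 3.58.1 (R 4.3.3, eBayes with trend, Benjamini-Hochberg over 11865 genes, two-sided, threshold 0.05) was fitted to all 6 libraries in 4 groups, with 2 residual degrees of freedom. Since each control group has 1 library, its spread is assumed to be that of the siRNA libraries. The averaged knockdown and the difference of siRNA 2 from siRNA 1 came from another limma fit, with terms for line, siRNA 1 and siRNA 2. That fit assumes the same effects in both lines, and its spread is how far the lines disagree on them. The script was tested on simulated data. Python 3.11.15 with pandas 2.3.3, numpy 2.4.6 and matplotlib 3.10.9 was used for the rest. Gene positions are from GENCODE lifted to hg19, and promoter windows from RefSeq on GRCh38.p14.

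All 32 members were named. Of the wider lists, called genes (at most 6 per list and line) and ATF4, DDIT3, HSPA8 and HSP90AB1 were named. SESN2, DDIT4, ATF3 and VLDLR were added to show how the siRNAs differed. The members and lists were chosen with earlier results of these data known. Both lines carry the siRNA numbers 1 and 2 in their labels, so libraries could be paired by siRNA number. The difference of siRNA 2 from siRNA 1 correlated across 11865 genes between the lines with 0.27, over 2 pairs, and genes are not independent replicates. Alternatives changed the pseudocount, the filter, the rule for repeated symbols, the scaling, the call limit and the libraries used.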

Additional observations from a re-analysis of the deposited data

Results flagged for a closer look

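For 2 of 32 members every siRNA library moved one way from NC in DU145 and the other way in 769-P. Over all tested genes, both siRNA libraries were above NC for 43.5% and below it for 22.2% in DU145. In 769-P these shares were 31.5% and 39.5%. The share of tested genes with opposite directions was not counted, so these 2 members cannot be set against it. HSPA13 was above NC in DU145 and below it in 769-P, and the knockdown change of DU145 exceeded the one of 769-P by 0.50 on the log2(FPKM + 1) scale (limma adjusted p = 0.999). SEC61B was below NC in DU145 and above it in 769-P, with a difference of -0.35 (limma adjusted p = 0.999). Neither difference passed the test.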

How the results depend on the processing

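Each control is 1 library, which limits what any test here could show. In the fit of 4 groups the siRNA libraries alone give the spread. Depth is not known, and changes of the lowest members are shrunk most by the pseudocount. The number of members called in DU145, 1 as reported, was 2 with a pseudocount of 0.1, with small RNA genes left out and with median centring (DNAJB9 and ERN1 each time), 3 with the mean of the siRNAs (CALR, DNAJB9 and OS9), 0 with a mean of at least 5 FPKM, where DNAJB9 was not tested, and 3 to 5 with 1 siRNA left out, where 1 library decides. In 769-P, 1 as reported, it was 2 with a pseudocount of 0.1 (DNAJB9 and ERN1) and with the mean of the siRNAs (DNAJB9 and SEL1L), 0 at 5 FPKM and 0 at 2-fold, and 2 to 6 with 1 siRNA left out. The median member change in DU145, 0.18 as reported, was 0.0777 with small RNA genes left out, 0.0775 with centring, and 0.18 to 0.23 with 1 siRNA left out. The number of members that differed in level between the lines, 11 as reported, was 5 with no filter, where 24551 genes were tested, and 4 to 8 with 1 library left out, where fewer libraries were fitted. In the fits chosen after the data were seen, members that differed between the siRNAs, 0 as reported, were 2 at 5 FPKM and 2 with background subtracted (HERPUD1 and OS9), and 0 to 1 with 1 library left out. Members that passed for the averaged knockdown, 0 as reported, were 1 with small RNA genes left out (DNAJB9) and 0 to 1 with 1 library left out. The cause of these moves was not tested where no construction is named. With the replicate block, the siRNA number as a term, 0 members passed in DU145, 0 passed in 769-P and 0 passed for the difference between lines. In level between the lines 14 members differed, as did 50.4% of all tested genes. The numbers are taken to mark the same siRNA in both lines, and the labels name no shared culture or day. The other 92 values under alternatives stayed within 1.5 times the count or within the spread between replicates. Among them was the median member change in 769-P, 0.01 as reported and -0.02 with background subtracted. With 1 siRNA left out it was between -0.04 and 0.08. Those are the single-siRNA medians that also set the spread, so staying within it says little there. Of the values of single members, 31 lost and 7 gained a passing test under an alternative, and 32 fold changes with no test moved by more than the spread between the siRNAs. With 1 siRNA left out, a member's fold change cannot move by this measure, since the same 2 siRNAs give the spread.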
